A study of Mus musculus with 78 samples.

Results

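Cerebral arteries of mice that had fasted intermittently and then lived with narrowed carotid arteries for 30 days were compared with arteries of fasted mice 30 days after sham surgery. The labels put 4 libraries in each of these groups, and these 8 libraries were taken by their treatment labels from the 78 libraries of the series. Both groups were male wild-type C57Bl6 mice, and both had been on intermittent fasting (IF) for 3 months before surgery. The first group then had bilateral carotid artery stenosis (BCAS), a surgical narrowing of both common carotid arteries that lowers blood flow to the brain over a long time. The second had sham surgery, and both were culled on day 30 for collection of the cerebral artery. The series holds matching groups on ad libitum feeding (AL) and on days 1, 7, 14 and 21, which were used here for reference. Their libraries also entered the filter and the main fit, so the spread behind each gene's p-value was estimated over all 78 libraries. The labels give neither the fasting schedule, the age of the mice nor the hour of collection. Nothing in the labels says whether each library came from a different mouse, so the p-values measure only the spread between libraries, which may in part be technical.

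Cerebral arteries are made of an endothelial lining, a coat of contractile smooth muscle and an outer layer of fibroblasts, with pericytes on the smaller branches. A narrowed carotid lowers both pressure and flow downstream. Endothelial cells sense flow, and arteries that carry collateral flow are known to remodel their matrix, their muscle tone and their vessel wall over days to weeks. Intermittent fasting is known for its effects on metabolism, on stress resistance and on the daily clock. The question here was which transcripts differed after a month of stenosis in mice that had fasted.

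Expression was read as FPKM (fragments counted for a gene, scaled to its length and to the depth of the library), as deposited, which allows levels to be compared between genes. The depth recovered from the FPKM values was 16316601 to 22802485 fragments in BCAS libraries and 15747402 to 19979579 in sham libraries (exact permutation test, two-sided, p = 0.371, n = 4 each; the smallest p this design allows is 0.0286). Mitochondrial genes took 6.73 to 6.93% of fragments in BCAS libraries and 6.81 to 7.20% in sham libraries. Smooth muscle and endothelial markers were high in all 8 libraries, which fits the labelled tissue: the actin gene Acta2 averaged 5186 ± 885 FPKM in BCAS arteries and 5339 ± 791 FPKM in sham arteries (SD, n = 4 each), and the endothelial adhesion gene Pecam1 averaged 68.3 ± 8.20 and 54.6 ± 7.08 FPKM in BCAS and sham arteries. No pair of libraries was identical.

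Few transcripts passed the test of stenosis against sham surgery on day 30. Of 15707 genes tested, 14 passed (0.0891%), 9 higher (0.0573%) and 5 lower (0.0318%) in BCAS than in sham arteries. The test was limma on log2(FPKM + 1) with an adjusted p (Benjamini-Hochberg over all genes tested) under 0.05, and log2 changes below are on that scale, which understates the change of genes of low level. At an unadjusted p under 0.05, 977 genes were higher (6.22%) and 798 lower (5.08%; 11.3% in all). The median log2 change over all genes was 0.0026, the median absolute change 0.0959 and the median standard error 0.1098. The values of the BCAS and sham libraries did not overlap for any of the 14 genes, as for 1148 or 7.31% of all genes tested. Counts depended on single libraries: 29 genes passed without BCAS replicate 2, 8 without BCAS replicate 3, and 6 each without BCAS replicate 4 or sham replicate 2, 3 or 4. Replicates are numbered in accession order. In a fit of only the compared groups 6 genes passed, and of the 14 only Crispld2 and Ptp4a3 were among them. With voom weights on recovered fragments 6 genes were higher and 9 lower.

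The 9 transcripts that rose were Crispld2, Ptp4a3, Ptgr1, Cdh13, Lsp1, Igfbp4, Zfp467 and Stom, and the processed pseudogene Gm5814. The 5 that fell were Lsmem2, 2210407C18Rik, Tceal6, Gpm6a and Id4. Of the 14, 12 are protein-coding in the deposited table, and 9 differed by more than 1.5-fold (4 up and 5 down). In bulk arteries, a change in the share of cells that make a transcript and a change in the amount per cell cannot be told apart.

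**Figure D1:**
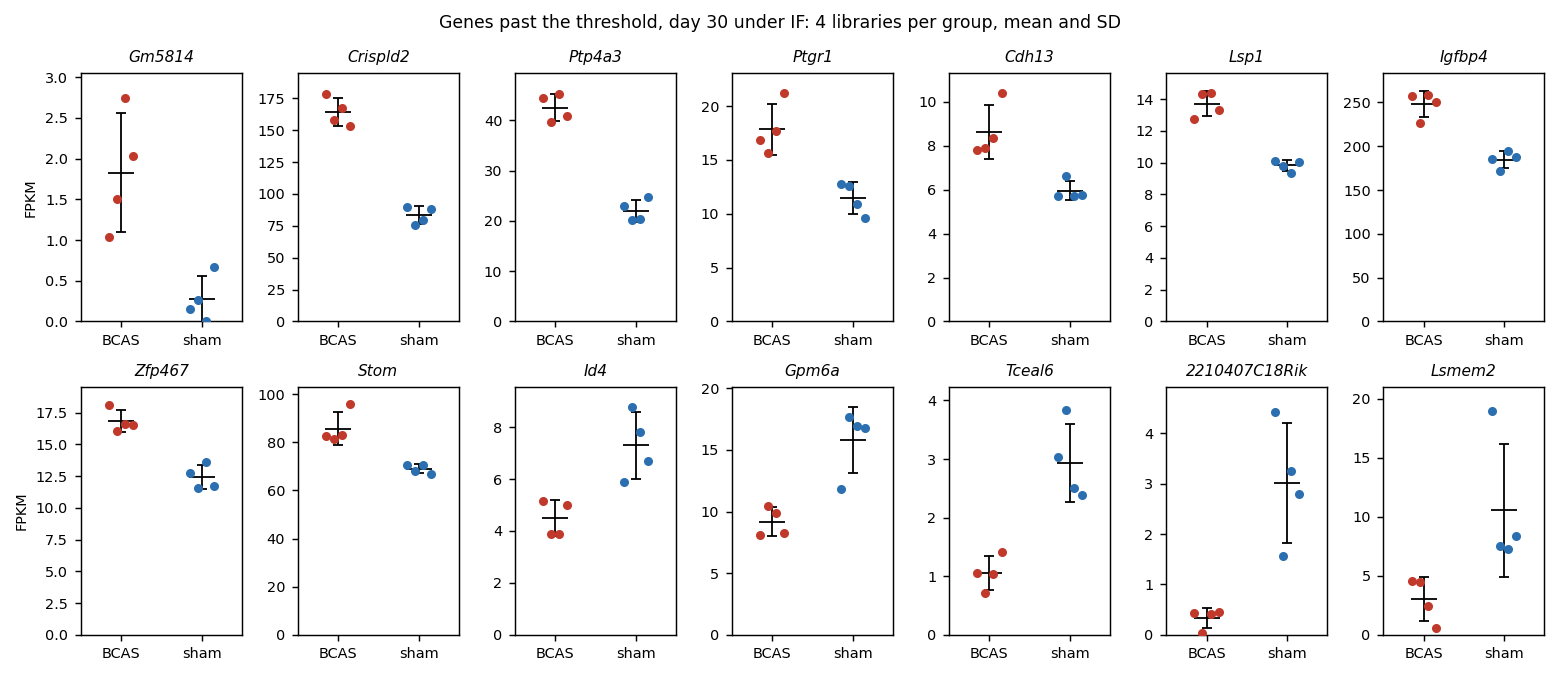
FPKM of the 14 genes that passed on day 30 under fasting, in the 4 BCAS libraries (red, left) and the 4 sham libraries (blue, right) of each panel, with the mean and SD as black bars; each y axis starts at 0. The red and blue points do not overlap in any panel, and Crispld2 sits between 153 and 179 FPKM in BCAS arteries against 75.4 to 90.0 FPKM in sham arteries.

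The promoters of Crispld2, the most abundant gene with a near doubling, and of 2210407C18Rik, the gene with the lowest level relative to sham, are shown because these 2 genes also passed on day 30 under ad libitum feeding. RefSeq promoters (250 bases before to 50 bases after the start, build GRCm38.p6, 5′ to 3′ on the gene's strand) were available for 10 of the 14 genes. Ptp4a3 also passed under both diets but was not among these 10. The Crispld2 window lies at chr8:119992188-119992487 on the plus strand, and capitals mark an E-box, CACGTG. The 2210407C18Rik window lies at chr11:58613443-58613742 on the minus strand, and capitals mark a cAMP element, TGACGTCA.
Crispld2: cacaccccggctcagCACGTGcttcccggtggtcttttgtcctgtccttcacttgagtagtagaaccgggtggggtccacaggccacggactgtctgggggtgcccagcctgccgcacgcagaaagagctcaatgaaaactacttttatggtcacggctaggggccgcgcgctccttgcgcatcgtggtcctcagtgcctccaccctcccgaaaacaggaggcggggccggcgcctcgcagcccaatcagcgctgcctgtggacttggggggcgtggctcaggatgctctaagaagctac
2210407C18Rik: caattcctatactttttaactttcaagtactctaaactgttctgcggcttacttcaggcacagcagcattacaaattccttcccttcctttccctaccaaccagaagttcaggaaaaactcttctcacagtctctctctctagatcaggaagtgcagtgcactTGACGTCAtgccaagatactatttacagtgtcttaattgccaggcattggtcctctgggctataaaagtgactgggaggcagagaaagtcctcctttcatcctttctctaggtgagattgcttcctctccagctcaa
The E-box was found in 7.15% of all promoters in the table and the cAMP element in 1.79%, on either strand. Among the 10 genes, the E-box was also in the promoter of Tceal6, and GGAATG, the core of the TEAD motif (14.7% of all promoters), was in those of Stom, Gpm6a and Id4. The D-box TTATGTAA, the heat shock element GAANNTTC and the AP-1 motifs TGAGTCA and TGACTCA did not occur in these windows. A match describes letters in the window and not binding.

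Crispld2 encodes a secreted protein with a CAP domain and LCCL domains. It had 179, 158, 167 and 153 FPKM in BCAS arteries, against 90.0, 75.4, 79.7 and 88.1 FPKM in sham arteries. The lowest BCAS library was well above the highest sham library. Its means were 164 ± 11.2 FPKM in BCAS and 83.3 ± 6.90 FPKM in sham arteries (SD, n = 4 each), a log2 change of 0.97 ± 0.12 (SE; limma adjusted p = 5.21e-07). Crispld2 (ENSMUSG00000031825) lies on chromosome 8 at 119992438 to 120052793 (GRCm38).

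Ptp4a3 encodes a small protein tyrosine phosphatase that is known from endothelium and from tumour vessels. It had 44.4, 39.6, 45.3 and 40.8 FPKM in BCAS arteries and 22.9, 20.2, 20.3 and 24.8 FPKM in sham arteries. All 4 BCAS libraries were close to each other and above every sham library. Ptp4a3 rose by a log2 change of 0.92 ± 0.14 (SE; limma adjusted p = 4.88e-05). The calls of Crispld2 and Ptp4a3 held without any 1 library, with adjusted p up to 2.56e-05 for Crispld2 and up to 0.00114 for Ptp4a3. They were the only pair among the 14 that also passed under each of the 9 other settings of the test.

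The remaining protein-coding rises were smaller. Ptgr1, which encodes prostaglandin reductase 1, an enzyme that inactivates leukotriene B4, had 16.9, 15.6, 17.7 and 21.2 FPKM in BCAS arteries and 12.7, 12.6, 10.9 and 9.65 FPKM in sham arteries. It rose by 0.60 ± 0.12 on the log2 scale (limma adjusted p = 0.00723). The call was lost without BCAS replicate 4 or without sham replicate 3 or 4, with log2 changes of 0.52 to 0.58. Lsp1, an actin-binding protein of leukocytes and endothelium, had 12.8 to 14.4 FPKM in BCAS and 9.38 to 10.1 FPKM in sham arteries, a rise of 0.44 ± 0.09 (limma adjusted p = 0.0174). It did not pass without BCAS replicate 3 or 4 or sham replicate 2, 3 or 4 (adjusted p up to 0.0827).

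Igfbp4 encodes a binding protein of insulin-like growth factors and was the most abundant of the 14. It had 257, 227, 258 and 251 FPKM in BCAS arteries and 186, 172, 194 and 187 FPKM in sham arteries, a rise of 0.42 ± 0.09. Cdh13 encodes T-cadherin, a receptor for adiponectin that is anchored in the membrane by a lipid, and had 7.79, 7.88, 8.34 and 10.4 FPKM in BCAS arteries against 5.70, 6.63, 5.73 and 5.77 FPKM in sham arteries, a rise of 0.46 ± 0.10. The groups lay apart in both genes, and BCAS replicate 4 held the highest Cdh13 value. The zinc finger gene Zfp467 had 16.1 to 18.1 FPKM in BCAS and 11.6 to 13.6 FPKM in sham arteries and rose by 0.41 ± 0.09. Stom, which encodes the membrane protein stomatin, had 81.4 to 95.9 FPKM in BCAS and 66.6 to 70.8 FPKM in sham arteries and rose by 0.31 ± 0.07. All 4 had a limma adjusted p of 0.0379, just under the threshold. Igfbp4 and Stom passed only when BCAS replicate 2 was the library left out, Zfp467 only without BCAS replicate 2 or sham replicate 3, and Cdh13 only without BCAS replicate 1 or 2. Over the fits without 1 library the log2 changes stayed between 0.39 and 0.47 for Igfbp4, 0.25 and 0.33 for Stom, 0.38 and 0.45 for Zfp467 and 0.37 and 0.50 for Cdh13, and the adjusted p reached 0.151, 0.188, 0.151 and 0.190 in that order.

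Gm5814 is annotated as a processed pseudogene on chromosome 17 and had a low level. It had 1.04, 1.501, 2.74 and 2.04 FPKM in BCAS arteries and 0.150, 0.265, 0 and 0.673 FPKM in sham arteries. Its log2 change was 1.14 ± 0.22 (limma adjusted p = 0.00723). Reads of a processed pseudogene can be shared with its parent gene, so its level is uncertain. The call was lost without BCAS replicate 3 or 4 or sham replicate 3 (adjusted p up to 0.0827), and under a pseudocount of 0.1, voom weights or a fit of only the compared groups (adjusted p up to 0.156).

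The falls were led by 2 transcripts of low level. Lsmem2 (ENSMUSG00000103409, chromosome 9 at 107593841 to 107597075) is listed as a lincRNA of 369 bases in the deposited table, while RefSeq lists the symbol as a protein-coding gene. It had 4.52, 4.45, 2.43 and 0.608 FPKM in BCAS arteries and 18.9, 7.55, 7.27 and 8.38 FPKM in sham arteries. Sham replicate 1 was far above the other sham libraries, and BCAS replicate 4 was the lowest of all. Lsmem2 fell by 1.58 on the log2 scale (SE 0.28; limma adjusted p = 0.00198). Without BCAS replicate 4 the change was -1.19 and the adjusted p 0.0652, and in a fit of only the compared groups the adjusted p was 0.202. Without sham replicate 1 the gene still passed.

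2210407C18Rik, a gene without a well known role on chromosome 11 at 58608204 to 58616075, was nearly silent in BCAS arteries. It had 0.437, 0.0335, 0.413 and 0.449 FPKM in BCAS arteries against 4.43, 1.56, 3.26 and 2.80 FPKM in sham arteries. Every sham library was more than 3-fold above every BCAS library. It fell by 1.55 on the log2 scale (SE 0.28; limma adjusted p = 0.00358), and the call held without any 1 library (adjusted p up to 0.0465). In a fit of only the compared groups it did not pass (adjusted p = 0.0733).

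Tceal6, an X-linked gene of the family related to transcription elongation factor A, had 1.05, 0.716, 1.04 and 1.41 FPKM in BCAS arteries and 3.03, 3.84, 2.50 and 2.38 FPKM in sham arteries. It fell by 0.94 on the log2 scale (SE 0.18; limma adjusted p = 0.00723), and without sham replicate 2 the change was -0.83 with an adjusted p of 0.0701. Gpm6a encodes a membrane glycoprotein known from neurons, and Id4 encodes an inhibitor of basic helix-loop-helix transcription factors known from astrocytes and neural progenitors. Gpm6a had 8.09, 10.5, 9.88 and 8.28 FPKM in BCAS arteries and 11.8, 17.7, 16.9 and 16.8 FPKM in sham arteries, a fall of 0.71 (SE 0.16). Id4 had 5.15, 3.90, 3.90 and 5.02 FPKM in BCAS arteries and 5.87, 8.78, 7.83 and 6.70 FPKM in sham arteries, a fall of 0.59 (SE 0.13).

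Both had a limma adjusted p of 0.0379, and in both the lowest sham library was replicate 1. That library also had the lowest astrocyte marker level of all 8 (mean log2(FPKM + 1) over 10 astrocyte genes of 3.43, against 3.94 to 4.15 in the other sham libraries and 3.55 to 3.69 in BCAS libraries). Gpm6a and Id4 still passed without sham replicate 1, and with the level of brain markers as a covariate. That covariate pools astrocyte, neuron and oligodendrocyte genes. Of those tested, 1 of 10 astrocyte, 1 of 10 neuron and 8 of 8 oligodendrocyte genes had a change above 0. The pooled level therefore does not follow astrocyte genes alone, and a covariate of astrocyte genes alone was not tested. In a fit of only the compared groups neither passed (adjusted p = 0.103 for Gpm6a and 0.126 for Id4), and Id4 did not pass with red blood cell markers as a covariate (adjusted p = 0.0652). Gpm6a did not pass without BCAS replicate 1, 3 or 4 or sham replicate 2, 3 or 4 (adjusted p up to 0.153), nor Id4 without BCAS replicate 2, 3 or 4 or sham replicate 2, 3 or 4 (adjusted p up to 0.193). Exons of Id4 overlap the antisense genes A330033J07Rik and Gm49291, and whether the counting used strand is not given in the sources used here. Gfra2, which encodes a receptor of neurturin, was the next protein-coding gene with separate groups at 2.54, 2.04, 2.99 and 3.16 FPKM in BCAS and 4.78, 4.25, 4.59 and 4.97 FPKM in sham arteries, and did not pass (log2 change -0.63, limma adjusted p = 0.0577).

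The other IF days show whether the same genes differed earlier after surgery, in libraries that day 30 does not share. For all 14 genes the mean change over days 1, 7, 14 and 21 had the sign of day 30, as it did for 53.6% of all genes tested, and 10 of them had an unadjusted p under 0.05 in that mean (7.13% of all genes). In that mean 15 genes passed (0.0955%), 13 higher (0.0828%) and 2 lower (0.0127%). Among them were Crispld2 and Ptp4a3, at 0.48 ± 0.06 (limma adjusted p = 1.09e-06) and 0.40 ± 0.07 (adjusted p = 0.00317). Crispld2 averaged 102 ± 21.3 FPKM on day 1, 131 ± 10.05 on day 7, 136 ± 28.1 on day 14, 103 ± 10.2 on day 21 and 164 ± 11.2 on day 30 in BCAS arteries (SD, n = 4 each). In sham arteries it averaged 76.1 ± 7.28, 91.7 ± 16.1 (n = 3), 90.5 ± 2.32, 74.4 ± 5.62 and 83.3 ± 6.90 FPKM on the same days. Ptp4a3 averaged 24.8, 29.8, 30.4, 29.7 and 42.5 FPKM over these days in BCAS arteries and 21.8, 19.9, 22.1, 22.2 and 22.0 FPKM in sham arteries. The highest BCAS level of both genes was on day 30, while the day 30 sham level lay within the range of the other sham days.

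**Figure D2:**
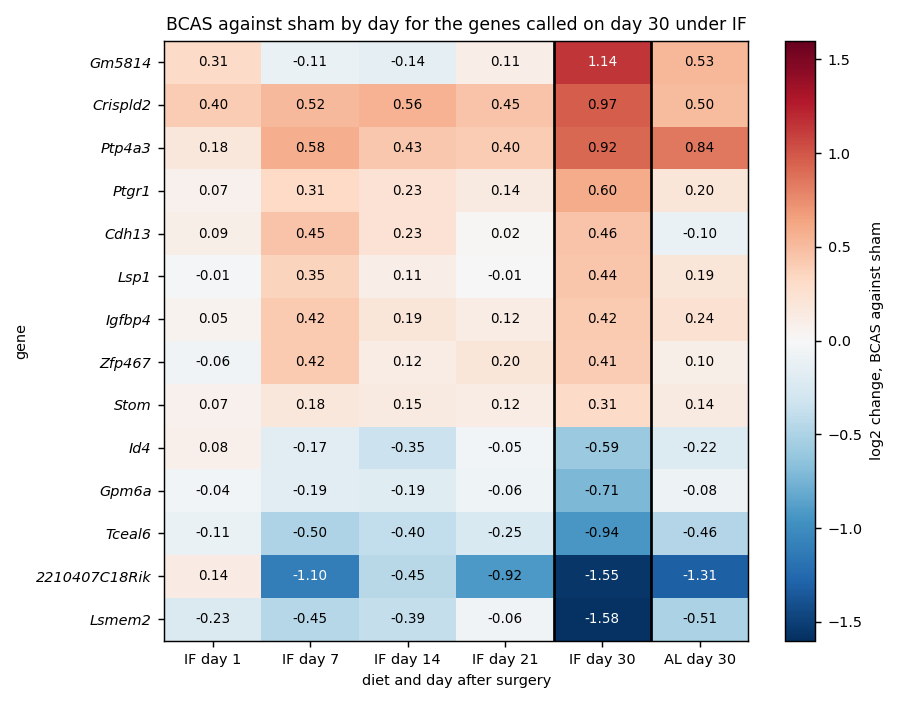
Log2 change, BCAS against sham, of the 14 genes (rows) on days 1, 7, 14, 21 and 30 under IF and on day 30 under AL; the black frame marks the column that chose the genes. Outside the frame the colours are paler for most genes, and Ptp4a3 and 2210407C18Rik reach 0.84 and -1.31 under AL on day 30.

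2210407C18Rik averaged 2.73 FPKM on day 1, 0.610 on day 7, 1.71 on day 14, 0.658 on day 21 and 0.333 on day 30 in BCAS arteries, against 2.43, 2.65, 2.59, 2.14 and 3.01 FPKM in sham arteries. Its change was 0.14 on day 1 and negative on each later day. Gm5814 averaged 0.604, 0.212, 0.354, 0.318 and 1.83 FPKM on the same 5 days in BCAS arteries and 0.278, 0.305, 0.519, 0.216 and 0.272 FPKM in sham arteries. Igfbp4, Zfp467, Lsp1 and Cdh13 had changes of 0.35 to 0.45 on day 7, close to those of day 30, with changes between -0.06 and 0.23 on days 1, 14 and 21. These 4 are a secreted binding protein, a zinc finger protein, an actin-binding protein and a cadherin, and Zfp467 also passed on day 7 (0.42, limma adjusted p = 0.0380), where 24 genes did (0.153%). The other values named here did not pass on those days.

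Whether the effect of stenosis on day 30 differed from its mean on the earlier days was tested as a difference of effects in limma. No gene passed in limma (1275 at an unadjusted p under 0.05, or 8.12%), and the smallest adjusted p was 0.427. All 14 genes had an unadjusted p under 0.05 for this difference, in the direction of the day 30 change that chose them, so this count is a description. The protein-coding genes of smallest p outside the 14 were Cda, a cytidine deaminase, with 1.36 to 1.99 FPKM in BCAS and 0.244 to 1.01 FPKM in sham arteries, Retreg2, Prkcsh, Sympk and Npff, with differences of 0.90, 0.23, 0.27, 0.27 and -0.72 on the log2 scale in that order. Day 30 BCAS arteries against the mean of BCAS arteries of the other IF days gave 11 genes (0.07%), 9 higher (0.0573%) and 2 lower (0.0127%). This comparison shares its 4 BCAS libraries with the main one. Crispld2 was 0.50 ± 0.10 higher (limma adjusted p = 0.0118), Ptp4a3 0.56 ± 0.11 higher (adjusted p = 0.0118), Gm5814 1.04 ± 0.18 higher and Tceal6 had a change of -0.74 ± 0.14.

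Among the others that passed there, Egfl8, a secreted protein with EGF repeats, had 19.997, 22.4, 22.8 and 37.1 FPKM in BCAS and 11.7, 13.2, 17.0 and 17.7 FPKM in sham arteries on day 30. It was 0.74 higher than on the other days, and BCAS replicate 4 was the highest library. Lox, the enzyme that crosslinks elastin and collagen, fell by 0.45 (limma adjusted p = 0.0490). The count was 1 without BCAS replicate 1, 2 without BCAS replicate 3 and 70 without BCAS replicate 2. Day 30 sham arteries against the mean of the other IF sham arteries gave no gene in limma (834 at an unadjusted p under 0.05, or 5.31%, smallest adjusted p = 0.316). The protein-coding genes with the smallest p there were Myoc, Ntsr2, Rrp7a, Bcan and Disp3. Myoc, a secreted glycoprotein, had 26.9, 65.8, 39.5 and 63.4 FPKM in the day 30 sham libraries, and Bcan, a brain matrix proteoglycan, had 7.13, 14.0, 11.1 and 13.2 FPKM. Sham replicate 1 was the lowest of the 4 in both genes, as it was for the astrocyte marker level above. Without sham replicate 1, 8 genes passed in this sham comparison, and 1 passed without sham replicate 2.

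The ad libitum groups of day 30 give the same surgical contrast in mice that ate freely, again in libraries of their own. There 56 genes passed (0.357%), 14 higher (0.0891%) and 42 lower (0.267%). Crispld2, Ptp4a3 and 2210407C18Rik passed under both diets, which is 21.4% of the 14 genes under IF and 5.36% of the 56 under AL. Of the 14 genes, 13 had the same sign under AL, Cdh13 being the exception, where 56.8% of all genes did. Of the 56 genes, 34 had the same sign under IF. Crispld2 differed by 0.50 and Ptp4a3 by 0.84 on the log2 scale under AL, against 0.97 and 0.92 under IF. Ptp4a3 averaged 30.4 ± 3.68 FPKM in BCAS and 16.6 ± 2.13 FPKM in sham arteries under AL. 2210407C18Rik averaged 1.31 ± 0.586 FPKM in BCAS and 4.60 ± 0.846 FPKM in sham arteries under AL (SD, n = 4 each).

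The difference between the diets was tested as an interaction, the BCAS effect under IF minus that under AL. No gene passed in limma (1016 at an unadjusted p under 0.05, or 6.47%), and the smallest adjusted p was 0.0641, for Prkab1, a regulatory subunit of the energy sensor AMPK. Prkab1 had 12.4, 11.3, 9.92 and 11.1 FPKM in BCAS and 12.6, 12.2, 13.9 and 12.7 FPKM in sham arteries under IF. Under AL it had 10.8, 11.9, 11.8 and 12.8 FPKM in BCAS and 9.34, 8.58, 9.47 and 8.67 FPKM in sham arteries. The groups lay apart under AL, with BCAS higher, and overlapped under IF, with the BCAS mean lower. With another scaling of the libraries (median of ratios), or without BCAS replicate 1, 1 gene passed the interaction.

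The next genes by p were Dnajb1, Coq10b, Ell2 and Dnajb4. Dnajb1, a cochaperone of the heat shock response, had 9.43, 10.7, 9.37 and 10.5 FPKM in BCAS and 9.18, 9.61, 8.84 and 8.82 FPKM in sham arteries under IF. Under AL it had 12.1, 11.6, 9.64 and 9.52 FPKM in BCAS and 35.1, 19.8, 20.8 and 19.8 FPKM in sham arteries. The 3 other groups were alike and the AL sham arteries stood above them. The interaction was 1.18 ± 0.24 (limma adjusted p = 0.0684), from a change of 0.12 under IF and -1.06 under AL. Coq10b, a mitochondrial protein that handles coenzyme Q, had an interaction of 0.85 ± 0.18 (adjusted p = 0.0818), Ell2, an elongation factor, one of 0.51 ± 0.12 (adjusted p = 0.128) and Dnajb4 one of 0.77 ± 0.18 (adjusted p = 0.142).

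**Figure D3:**
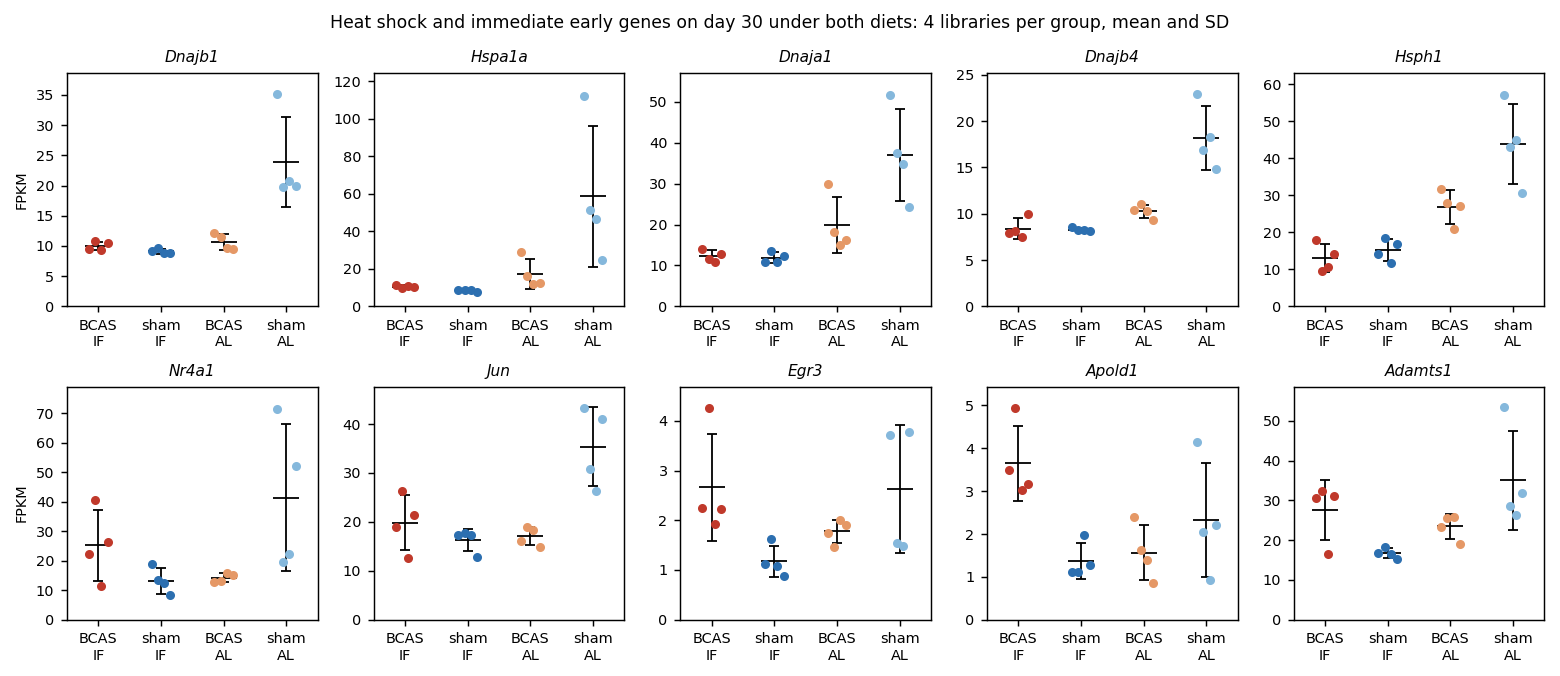
FPKM of 5 heat shock genes (top) and 5 immediate early or flow-related genes (bottom) on day 30 in BCAS and sham arteries under IF and under AL, 4 libraries per group with mean and SD; y axes start at 0. In the top row the AL sham mean is the highest of the 4 groups in each panel, and in the bottom row the fasted BCAS libraries spread above the fasted sham libraries for Egr3 and Apold1.

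Over the 18 heat shock chaperone genes, none passed under IF and 6 were lower under AL, where 0.267% of all genes were. The median log2 change was 0.03 under IF, with 13 above 0, and -0.27 under AL. Hspa1a, the inducible chaperone HSP70, had 11.4, 9.55, 11.1 and 10.3 FPKM in BCAS and 8.56, 8.57, 8.68 and 7.89 FPKM in sham arteries under IF. Under AL it had 29.1, 16.3, 12.04 and 12.3 FPKM in BCAS and 112, 51.1, 46.4 and 24.9 FPKM in sham arteries. Its interaction was 1.87 ± 0.49 (limma adjusted p = 0.25), and those of the cochaperone Dnaja1 and of Hsph1 were 0.92 ± 0.25 and 0.44 ± 0.27 (adjusted p = 0.27 and 0.826).

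Immediate early genes, which cells switch on within minutes of a stimulus, did not pass under IF. Of 23 members, 17 had a change above 0, with a median of 0.18 under IF and -0.32 under AL. At an unadjusted p under 0.05 in limma, 4 of the 23 were higher under IF, against 6.22% of all genes. Egr3, a transcription factor induced by growth signals, had 2.24, 4.26, 1.92 and 2.23 FPKM in BCAS and 1.11, 1.61, 1.08 and 0.888 FPKM in sham arteries. Apold1, an endothelial gene that responds early to stress, had 3.49, 4.93, 3.02 and 3.16 FPKM in BCAS and 1.11, 1.102, 1.99 and 1.27 FPKM in sham arteries. In both genes the groups lay apart and BCAS replicate 2 was the highest, and the changes of 0.72 ± 0.20 and 0.97 ± 0.27 did not pass (limma adjusted p = 0.132 and 0.135). Nr4a1, an orphan nuclear receptor, had 22.2, 40.7, 11.5 and 26.4 FPKM in BCAS and 18.8, 13.4, 12.4 and 8.27 FPKM in sham arteries, which overlap. Its interaction was 2.09 ± 0.58 and that of Jun, a subunit of AP-1, 1.22 ± 0.33 (adjusted p = 0.291 and 0.27). Jun averaged 19.9 ± 5.66 FPKM in BCAS and 16.3 ± 2.32 FPKM in sham arteries under IF.

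A list of 22 genes that had responded to stenosis in these same libraries, over both diets and all days, is not independent evidence of a direction. Of its members 2 rose (Crispld2 and Ptp4a3) and 1 fell (2210407C18Rik), where 0.0573% of all genes tested rose and 0.0318% fell. A change above 0 was seen in 17 of the 22, against 50.66% of all genes. The median change was 0.30, against 0.0026 over all genes. Pi15, a secreted peptidase inhibitor related to Crispld2, had 15.998, 9.44, 9.24 and 14.1 FPKM in BCAS and 7.26, 5.87, 6.39 and 6.81 FPKM in sham arteries (0.77 ± 0.21, limma adjusted p = 0.12). Wisp2, a matricellular protein of the CCN family, had 39.8, 69.2, 52.1 and 44.4 FPKM in BCAS and 30.7, 27.9, 24.95 and 27.65 FPKM in sham arteries (0.84 ± 0.25, adjusted p = 0.183). Both were higher in every BCAS library than in any sham library.

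The angiopoietin gene Angpt2, an endothelial ligand of Tie receptors, had 20.2, 17.7, 20.3 and 17.15 FPKM in BCAS and 14.99, 14.3, 14.1 and 16.9 FPKM in sham arteries (0.30 ± 0.09). Pgf, a VEGF family ligand linked to collateral growth, had 18.7 to 22.1 FPKM in BCAS and 15.4 to 16.3 FPKM in sham arteries (0.37 ± 0.12). Adamts1, a secreted metalloprotease, had 30.5, 32.4, 16.5 and 31.1 FPKM in BCAS and 16.8, 18.2, 16.5 and 15.2 FPKM in sham arteries (0.65 ± 0.22), with BCAS replicate 3 at the sham level. Vegfa went the other way, at 3.72 to 4.80 FPKM in BCAS and 5.23 to 5.73 FPKM in sham arteries (-0.33 ± 0.12). Dll4, a Notch ligand of endothelium, had 8.07 ± 1.77 FPKM in BCAS and 5.94 ± 1.24 FPKM in sham arteries. The other members of the stenosis list did not pass under IF. Those above 0 were Cyp4b1 (0.58), Acer2 (0.42), Fmo2 (0.37), Myc (0.31), Col4a1 (0.25), Ndrg1 (0.21), Cacna1c (0.19), Txnip (0.16) and Cav1 (0.15), as log2 changes. Baiap2l2 (-0.59) and Fbxl22 (-0.44) lay below 0. Ndrg1, which also belongs to the hypoxia list, rose by 0.34 under AL (limma adjusted p = 0.00184). None of the 19 angiogenesis genes tested passed, 10 were above 0 and their median was 0.02.

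Genes of the TGF-beta and BMP pathway lay mostly below 0. Of 21 members, 5 were above 0, the median was -0.11 (-0.08 under AL), and none passed. The inhibitory Smad6 had 26.4, 24.4, 27.2 and 24.7 FPKM in BCAS and 27.5, 35.8, 37.3 and 36.8 FPKM in sham arteries (-0.40 ± 0.11, limma adjusted p = 0.137). The other inhibitory Smad, Smad7, had 9.24 to 11.4 FPKM in BCAS and 11.2 to 15.8 FPKM in sham arteries (-0.40 ± 0.12). Smad6 and Smad7 are both feedback inhibitors of this pathway, and sham replicate 1 was the lowest sham library in both. The target Id2 averaged 45.8 ± 6.004 FPKM in BCAS and 64.6 ± 9.55 FPKM in sham arteries (-0.48 ± 0.14), and the ligand Bmp4 34.4 ± 4.93 FPKM in BCAS and 44.2 ± 8.70 FPKM in sham arteries (-0.35 ± 0.14).

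Matrix genes did not pass either. Of 15 fibrillar and other collagens tested, 6 were above 0 with a median of -0.09, and of 16 elastic fibre and crosslinking genes 7 were above 0 with a median of -0.04. Lox had 19.2, 15.8, 13.8 and 18.4 FPKM in BCAS and 20.9, 24.8, 22.2 and 25.7 FPKM in sham arteries, which do not overlap (-0.46 ± 0.13, limma adjusted p = 0.126). Its change under AL was -0.47 (adjusted p = 0.0868). Col5a1 had 11.2 to 13.9 FPKM in BCAS and 14.0 to 15.7 FPKM in sham arteries (-0.23 ± 0.06). Fbln5, an elastic fibre protein, averaged 66.3 ± 8.65 FPKM in BCAS and 83.6 ± 16.004 FPKM in sham arteries. Emilin1, a glycoprotein of elastic fibres, and the aggrecanase Adamts5 were on the other side, at 0.18 ± 0.07 and 0.45 ± 0.14. The gelatinases Mmp2 and Mmp9 had changes of 0.04 ± 0.10 and 0.04 ± 0.19.

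Channels and vasoactive genes set the tone of smooth muscle. Kcnk3, the acid-sensitive potassium channel TASK-1, had 19.3, 11.7, 14.04 and 15.99 FPKM in BCAS and 11.02, 7.76, 8.47 and 9.95 FPKM in sham arteries (0.65 ± 0.19, limma adjusted p = 0.146; 0.47 under AL). Kcnn4, a calcium-activated potassium channel, had 4.87 to 5.73 FPKM in BCAS and 3.00 to 4.76 FPKM in sham arteries (0.39 ± 0.12), and it rose by 0.50 under AL (adjusted p = 0.0292). Both channels were higher in every BCAS library than in any sham library, and the difference between diets did not pass for either. Ryr2, the calcium release channel, had 0.757 to 1.37 FPKM in BCAS and 1.27 to 1.79 FPKM in sham arteries. Of the 19 channel genes tested, 8 were above 0 with a median of -0.05.

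Endothelin and nitric oxide genes did not pass. Edn1, the constrictor peptide, averaged 27.3 ± 3.17 FPKM in BCAS and 37.0 ± 6.43 FPKM in sham arteries (-0.41 ± 0.19), and Ednrb, its receptor on endothelium, 1.503 ± 0.235 and 2.18 ± 0.609 FPKM in BCAS and sham arteries. The neuronal nitric oxide synthase Nos1 averaged 5.18 ± 0.797 FPKM in BCAS and 3.46 ± 0.877 FPKM in sham arteries, and the endothelial Nos3 30.9 ± 2.05 and 36.1 ± 4.00 FPKM. None of these 4 passed (limma adjusted p = 0.382, 0.354, 0.248 and 0.577 in that order). Of 21 vasoactive genes tested, 9 were above 0 with a median of -0.03. Hif1a, the hypoxia factor, had a change of -0.02 ± 0.09, and 9 of 20 hypoxia response genes were above 0. The contractile genes Acta2 and Myh11 had changes of -0.05 ± 0.19 and 0.10 ± 0.18, and all 14 smooth muscle markers overlapped between groups.

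Interferon response genes were the list with the highest median among the functional lists, and none passed. All 21 members were above 0, with a median of 0.30 under IF and 0.28 under AL, in libraries that the 2 diets do not share. Ifit1, an antiviral RNA-binding protein, had 42.3, 29.9, 27.8 and 20.02 FPKM in BCAS and 19.8, 13.9, 17.5 and 17.0 FPKM in sham arteries. Psmb8, a subunit of the immunoproteasome, had 26.0, 25.7, 23.6 and 26.1 FPKM in BCAS and 17.9, 18.3, 21.5 and 18.5 FPKM in sham arteries. Gbp2, an interferon-induced GTPase, had 34.8 to 41.0 FPKM in BCAS and 28.3 to 30.4 FPKM in sham arteries. The groups lay apart in these 3 genes, with changes of 0.74 ± 0.32, 0.40 ± 0.13 and 0.30 ± 0.13 (limma adjusted p = 0.353, 0.202 and 0.359). In all, the groups lay apart in 3 of the 21 members, against 7.31% of all genes tested. The mean log2(FPKM + 1) over the list was 4.70 to 5.13 in BCAS and 4.51 to 4.73 in sham libraries, which overlap.

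Other inflammatory genes did not pass. Of 17 chemokine, cytokine and adhesion genes tested, 6 were above 0 with a median of -0.06, and of 7 inflammasome genes 5 were above 0 with a median of 0.08. The leukocyte adhesion gene Icam1 had 3.74 ± 0.872 FPKM in BCAS and 5.29 ± 0.621 FPKM in sham arteries, and Vcam1 27.5 ± 1.64 and 29.4 ± 3.21 FPKM. The cytokine gene Il1b was at or under 0.369 FPKM in all 8 libraries.

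Genes of the ribosome and of the respiratory chain showed a small shift that no single gene passed. Of 78 cytosolic ribosomal protein genes, 75 were above 0 with a median of 0.18 (0.01 under AL), and of 75 nuclear genes of oxidative phosphorylation 67 were above 0 with a median of 0.17 (0.03 under AL). Over all genes 50.66% were above 0. The mean log2(FPKM + 1) of the ribosomal list was 8.10, 7.91, 8.11 and 8.16 in BCAS libraries and 7.88, 7.89, 7.93 and 7.91 in sham libraries, so BCAS replicate 2 lay at the sham level. The respiratory list had 6.61, 6.47, 6.66 and 6.58 in BCAS and 6.44, 6.39, 6.43 and 6.45 in sham libraries, which do not overlap, with BCAS replicate 2 the lowest BCAS library. Rpl23 had 302, 287, 318 and 316 FPKM in BCAS and 253, 257, 263 and 248 FPKM in sham arteries (0.26 ± 0.11). Ndufb9, a subunit of complex I, had 123, 114, 151 and 115 FPKM in BCAS and 96.8, 86.4, 91.8 and 102 FPKM in sham arteries (0.41 ± 0.14). The groups lay apart in 19 of the ribosomal and 27 of the respiratory genes, or 24.4% and 36.0%, against 7.31% of all genes tested.

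The change over protein-coding genes also followed gene length. Protein-coding genes under 1 kb had a median change of 0.141 with 68.2% above 0, those of 1 to 2 kb 0.0478 with 62%, those of 2 to 4 kb 0.0139 with 54.3% and those over 4 kb -0.0167 with 43.3%. The share of fragments in genes under 300 bases was 0.0612 to 0.0686% in BCAS and 0.0580 to 0.0617% in sham libraries (exact permutation test, two-sided, p = 0.0857, n = 4 each). Ribosomal and respiratory genes are mostly short and count among the protein-coding genes of these length groups. The length groups were not taken without them, and the part of length in their shift was not tested. Of the 13 genes of the mitochondrial genome, 10 were above 0 with a median of 0.04. One of them, mt-Atp6, had 405, 721, 120 and 193 FPKM in BCAS and 108, 126, 106 and 131 FPKM in sham arteries, while mt-Nd5 had 1015 to 1224 FPKM in BCAS and 1282 to 1688 FPKM in sham arteries.

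**Figure D4:**
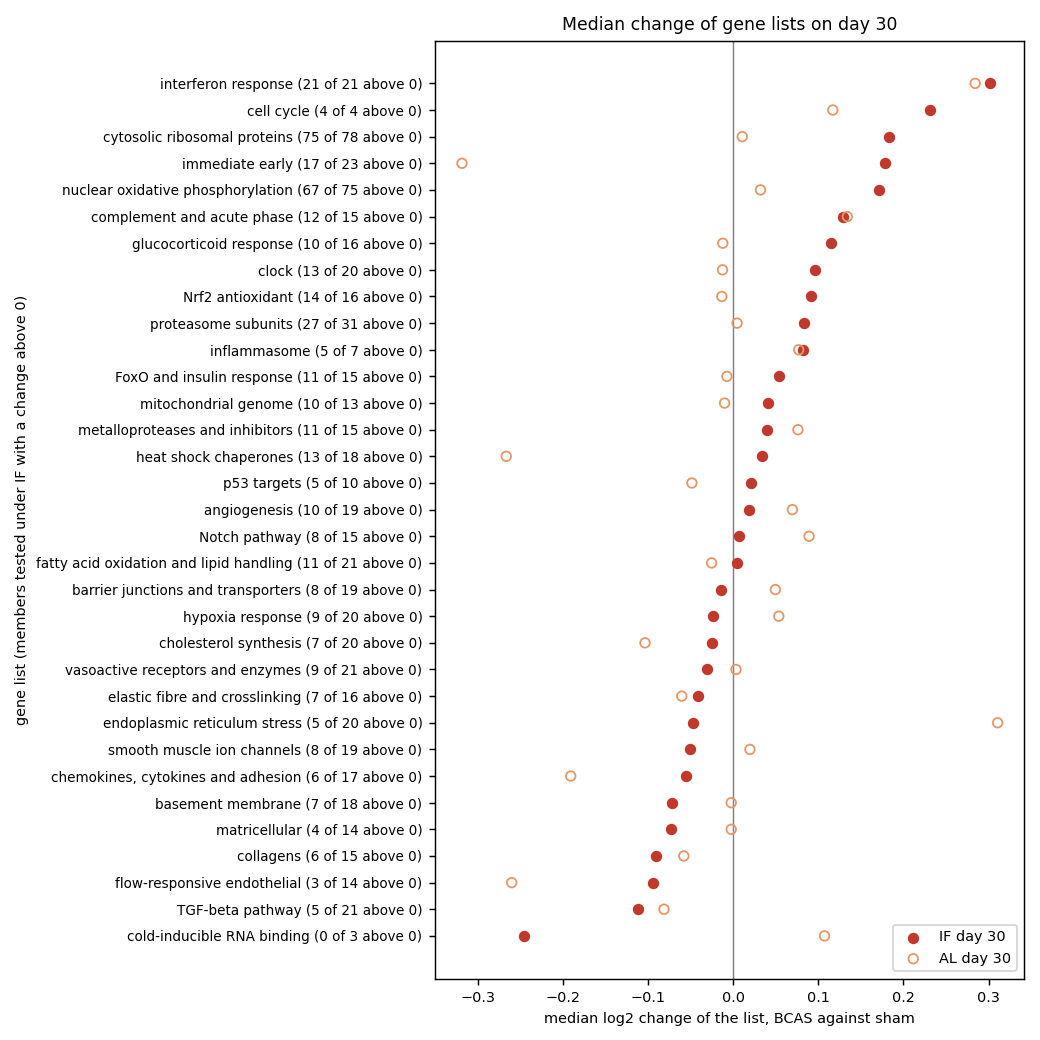
Median log2 change, BCAS against sham on day 30, of 33 functional gene lists (rows) under IF (filled red) and under AL (open orange); the numbers beside each name are the members tested under IF with a change above 0. Interferon, ribosomal and respiratory lists lie at 0.17 to 0.30 under IF, and for immediate early, heat shock and endoplasmic reticulum stress genes the IF and AL medians lie on opposite sides of 0.

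Endoplasmic reticulum stress genes had a median of -0.05 under IF, with 5 of 20 above 0, and 0.31 under AL. Of 20 clock genes none passed and 13 were above 0, with a median of 0.10. At an unadjusted p under 0.05 in limma 3 were higher and 1 lower, where 6.22% of all genes were higher and 5.08% lower. Arntl, which encodes the core clock activator BMAL1, had 1.78, 0.642, 0.725 and 0.645 FPKM in BCAS and 1.51, 1.90, 1.18 and 1.86 FPKM in sham arteries (-0.45 ± 0.15, limma adjusted p = 0.214). BCAS replicate 1 lay in the sham range and the other 3 BCAS libraries below it. Usp2, a deubiquitinase with a daily rhythm, had 6.32 to 11.7 FPKM in BCAS and 6.18 to 7.90 FPKM in sham arteries, and BCAS replicate 1 was its lowest BCAS library. The hour of collection is not in the labels, so its part in these values was not tested.

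Markers of other cell types were measured because brain tissue, blood and nerve can come along with cerebral arteries. None of the markers passed. Of 10 astrocyte, 10 neuron and 8 microglia genes tested, 1 of each list was above 0, with medians of -0.26, -0.26 and -0.22 under IF and -0.03, 0.03 and 0.11 under AL. The astrocyte glutamate transporter Slc1a2 had 5.55, 5.98, 4.39 and 6.66 FPKM in BCAS and 5.09, 13.3, 8.80 and 13.5 FPKM in sham arteries. Sham replicate 1 lay in the BCAS range and the other 3 sham libraries above it. Summed over the list, astrocyte genes had 141 to 162 FPKM in BCAS and 131 to 222 FPKM in sham libraries. Neuron genes had 26.0 to 34.8 FPKM in BCAS and 31.2 to 41.1 FPKM in sham libraries, and the neuron markers Gad2 and Rbfox3 were under 0.28 FPKM in all 8.

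Microglia genes had 50.02 to 65.98 FPKM in BCAS and 66.3 to 69.9 FPKM in sham libraries when summed, so that these groups lay just apart. The groups lay apart in 1 of the 8 microglia genes tested, against 7.31% of all genes tested. Gpr34, a receptor of microglia, had 1.78, 3.34, 3.53 and 1.76 FPKM in BCAS and 3.45, 3.69, 3.21 and 4.11 FPKM in sham arteries, which overlap. It had a change of -0.39 ± 0.13 (limma adjusted p = 0.225). Its change under AL was 0.35, and its interaction was -0.74 ± 0.19 (adjusted p = 0.227). Border-associated macrophage markers had a higher summed level in BCAS libraries, at 563 to 610 FPKM against 483 to 535 FPKM in sham libraries. Their mean log2(FPKM + 1) overlapped, at 4.44 to 4.66 in BCAS and 4.42 to 4.58 in sham libraries. Of the 10 markers 6 were above 0, with a median of 0.06, and all 10 overlapped between groups. Oligodendrocyte genes were above 0 in 8 of 8, with a median of 0.19 and ranges that overlap.

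Red blood cell genes were above 0 in 5 of 5, with a median of 1.00 under IF and -0.57 under AL. The haemoglobin gene Hbb-bs had 61.3, 26.6, 34.7 and 154 FPKM in BCAS and 11.7, 24.8, 48.5 and 23.7 FPKM in sham arteries. BCAS replicate 4 was the highest by far, the other libraries overlapped, and globin genes are near-identical copies whose reads the counting may split. Of 5 Schwann cell genes tested, 2 were above 0. Pituitary genes summed to 10.8 to 476 FPKM in BCAS and 2.48 to 454 FPKM in sham libraries, and the skeletal muscle marker Tnnc2 was at 0 in all 8.

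Endothelial genes were above 0 in 9 of 15, with a median of 0.14 under IF and 0.12 under AL. Vwf, which encodes von Willebrand factor, had 53.3, 66.0, 70.1 and 54.3 FPKM in BCAS and 46.9, 48.1, 49.1 and 54.5 FPKM in sham arteries (0.28 ± 0.11, limma adjusted p = 0.300). Pecam1 had 57.5, 74.7, 66.4 and 74.7 FPKM in BCAS and 45.6, 55.8, 62.9 and 54.3 FPKM in sham arteries (0.32 ± 0.13). The groups overlap in both genes. The pericyte gene Rgs5 averaged 23.3 ± 7.77 FPKM in BCAS and 34.7 ± 7.09 FPKM in sham arteries (-0.59 ± 0.22), with overlapping values. Of 10 pericyte markers 4 were above 0, with a median of -0.03, and all 10 overlapped between groups. The 12 fibroblast markers also had a median of -0.03. Summed, the fibroblast markers had 6379 to 7350 FPKM in BCAS and 5768 to 6317 FPKM in sham libraries, which do not overlap. Their mean log2 levels overlapped, and 7 of the 12 had a change below 0. The groups lay apart in 3 of the 12, against 7.31% of all genes tested. With brain markers as a covariate 12 genes passed in place of 14, of which 10 were shared, and with red blood cell markers 13 passed, of which 11 were shared. The rises of Crispld2, Ptp4a3, Gm5814, Ptgr1 and Lsp1 and the falls of Lsmem2, 2210407C18Rik, Tceal6 and Gpm6a passed with either covariate.

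**Figure D5:**
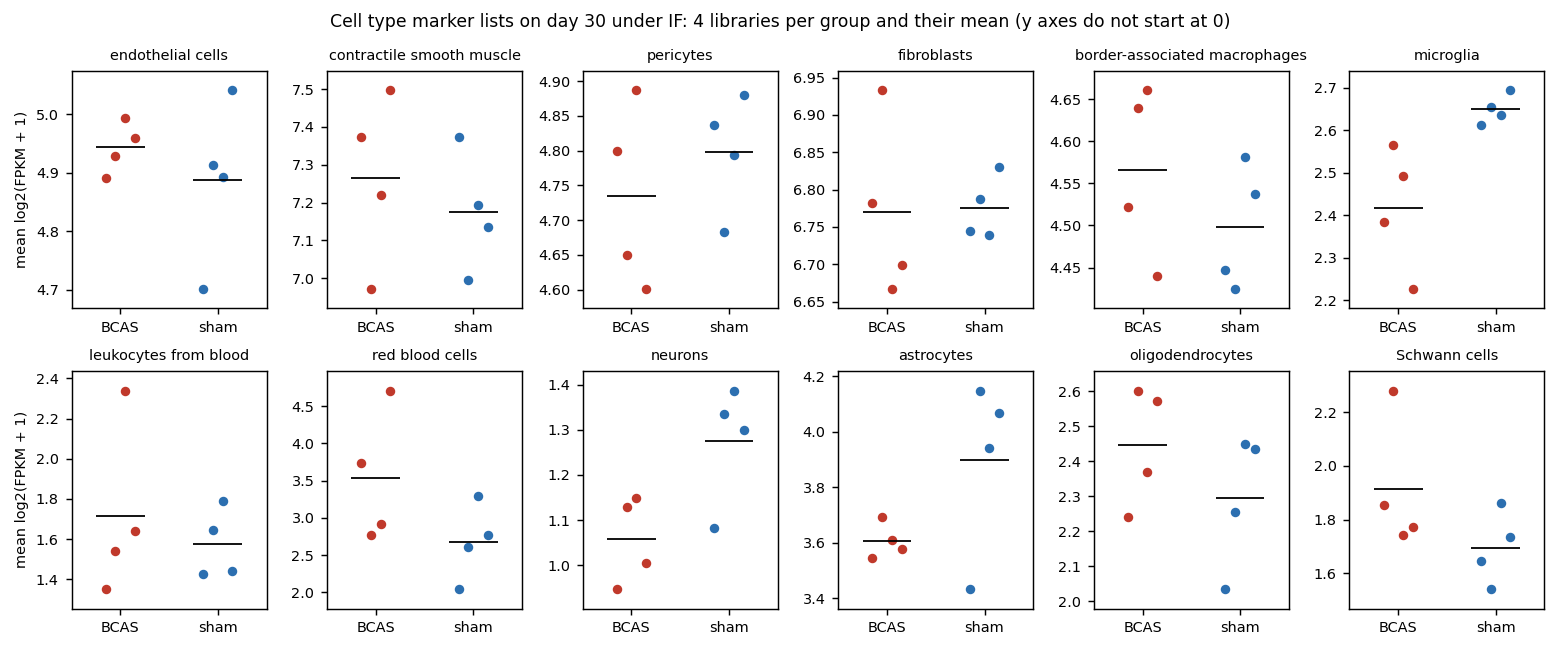
Mean log2(FPKM + 1) of 12 cell type marker lists in the 4 BCAS (red, left) and 4 sham (blue, right) libraries of day 30 under IF, with black lines for the group means; y axes do not start at 0 and differ between panels. Microglia is the panel in which the groups lie apart, at 2.23 to 2.57 in BCAS and 2.61 to 2.69 in sham libraries, and the lowest astrocyte value belongs to a sham library.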

How the data were processed

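RNA was sequenced from cerebral arteries with libraries made from 2 ug of total RNA, per the labels' protocols. The authors deposited 1 table of FPKM for 54532 genes. The submitters' processing notes name DESeq 1.10.1 but not its use. The aligner, counter, build and annotation are not given in the sources used here. GENCODE mouse release M21 holds 54495 of the IDs, 98.3% with the same coordinates (GRCm38). All low FPKM values came out as whole fragments within 0.05, which gave the depth. Depth-based ranges cover counting error only.

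The filter kept 15707 genes that reached 1 FPKM in 3 or more of the 78 libraries. limma 3.58.1 (R 4.3.3; trend and robust, statmod 1.5.0) was fitted to log2(FPKM + 1) with 20 group means, two-sided, and p-values were adjusted over all genes tested. Depths and shares were compared by exact permutation tests over 70 assignments. Replicate numbers do not pair samples.

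Genes were named by rule: all protein-coding genes past the threshold with separate groups and a mean of at least 1 FPKM, filled to 5 a direction by p, the 3 smallest p of each list described, the 22 stenosis-responsive genes, the 5 protein-coding genes of smallest p in each other comparison, and a fixed list of vascular genes. Gm5814 and Lsmem2, being no protein-coding genes in the table, were named because they passed, and a few list members shown in figures or beside a flagged value were chosen after their values were seen. Members and the 50 lists were chosen with earlier results of these data known. Alternatives were another pseudocount (0.1), no filter, a filter on the 8 libraries, only the compared groups, limma-voom on recovered fragments, median of ratios scaling, no trend or robust fit, brain or red blood cell markers as covariates, and each library left out. The fit was tested on simulated data. A few genes are not reported here. Promoters are RefSeq's (GRCm38.p6).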

Additional observations from a re-analysis of the deposited data

Results flagged for a closer look

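Of 222 sets of 4 libraries (111 genes in 2 groups), 17 held a library far from the other 3, where chance gives about 11.1, or 1 in 20. Among the genes that passed, these were Lsmem2 at 18.9 FPKM in sham replicate 1 (next 8.38), 2210407C18Rik at 0.0335 FPKM in BCAS replicate 2 (next 0.413), Stom at 95.9 FPKM in BCAS replicate 4 (next 83.0), Gpm6a at 11.8 FPKM in sham replicate 1 (next 16.8) and Cdh13 at 6.63 FPKM in sham replicate 2 (next 5.77).

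Sham replicate 1 was also the lowest for Smad6 at 27.5 FPKM (next 35.8) and Aldoc at 13.9 FPKM (next 31.4). Sham replicate 4 was the lowest for Jun at 12.9 FPKM (next 17.3) and Hspa1a at 7.89 FPKM (next 8.56), and the highest for Npff at 6.42 FPKM (next 4.92). Sham replicate 3 was the highest for Psmb8 at 21.5 FPKM (next 18.5).

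Among BCAS libraries, replicate 2 was the highest for Egr3 at 4.26 FPKM (next 2.24) and the lowest for Adamts5 at 5.43 FPKM (next 6.43). Replicate 3 was the lowest for Adamts1 at 16.5 FPKM (next 30.5). Replicate 4 was the lowest for Myc at 1.52 FPKM (next 2.43) and the highest for Egfl8 at 37.1 FPKM (next 22.8), and replicate 1 was the highest for Arntl at 1.78 FPKM (next 0.725).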

How the results depend on the processing

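No paired analysis was possible because the labels give the 2 groups no shared replicate numbers. Against 14 genes (9 higher, 5 lower), 36 passed with no filter (24 higher, 12 lower), 6 in a fit of only the compared groups (0 lower, 2013 at an unadjusted p under 0.05) of which 2 were shared, 15 with voom (9 lower) of which 11 were shared, and 12 with brain markers as a covariate (5 higher). Without 1 library 6 to 29 passed, 3 to 21 higher and 2 to 8 lower. The count for BCAS day 30 against other BCAS days was 11, and 6 with a pseudocount of 0.1, 64 with no filter, 7 with the filter on 8 libraries, 0 in a fit of only the compared groups and 1 to 70 without 1 library. The interaction count of 0 became 1 with no filter or median of ratios scaling, and 0 to 1 without 1 library. The count for the difference between days became 5 with no filter. The sham count of 0 became 13 with no filter, 8 with brain markers as a covariate and 0 to 8 without 1 library. The cause of these moves was not tested, beyond the added low genes and the fewer samples that the settings imply.

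Changes near 0 turned sign. Dnajb4 was -0.0127 with voom, -4e-04 with red blood cell markers and -0.065 to 0.0572 without 1 library. Over the fits without 1 library, Dnaja1 ranged over -0.0167 to 0.1103, Acta2 over -0.1375 to 0.0647, Hif1a over -0.0604 to 0.028, Mmp2 over -0.032 to 0.0922 and Mmp9 over -0.102 to 0.129. The other named genes kept their sign in these fits. With 4 libraries a group, changes near the median standard error of 0.1098 are not detectable, and genes of low FPKM have understated changes.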
